A study of Mus musculus with 4 samples.

Results

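Imatinib is a small-molecule inhibitor that binds the ATP pocket of a limited set of tyrosine kinases. Besides Kit, its main target in GIST, these include the colony-stimulating factor 1 receptor Csf1r, the platelet-derived growth factor receptors Pdgfra and Pdgfrb, the cytoplasmic kinases Abl1 and Abl2, the collagen-binding discoidin domain receptors Ddr1 and Ddr2 and the T cell kinase Lck. The genes of these 8 kinases were examined in macrophages sorted from mouse tumours. Of the 8 genes, 6 had probe sets that the platform annotation assigns to that gene alone, 17 probe sets in all of 22626 without controls. Abl2 and Lck had none under this rule and were not analysed here.

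The arrays compared 2 groups of tumour-associated macrophages (TAMs) from mice labelled GIST mice, whose gastrointestinal stromal tumours were digested with collagenase and sorted by flow cytometry. The imatinib group had 600 mg/L imatinib in the drinking water for 2 weeks, and the vehicle group is labelled vehicle control. The sources used here do not give the genotype, strain or age of the mice. Each group had 8 mice, whose sorted cells were pooled and hybridised to 2 Affymetrix arrays from 200 ng of RNA. The design text calls the 2 arrays of a group duplicates of a pool, whereas the sample titles call them biological replicates, so the p-values given here measure the spread between arrays only, which may be technical. Precision is limited by the small number of arrays.

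The kinases differ in where they normally act. Csf1r is the receptor for Csf1 and Il34 and is needed for the survival of most macrophages, which express it as a lineage gene. Pdgfra and Pdgfrb are receptors of mesenchymal cells, Pdgfra of fibroblasts and interstitial cells and Pdgfrb of pericytes, smooth muscle and fibroblasts. Ddr1 is found mainly in epithelium and Ddr2 mainly in connective tissue, and both are activated by collagen. Abl1 is expressed in most cell types and relays signals to the actin cytoskeleton, to DNA damage responses and to adhesion. Lck starts signalling from the T cell receptor. Imatinib blocks the activity of these enzymes, and the arrays measured their mRNA, not their activity.

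Values are MAS5 signals, on a linear scale that the authors had scaled to a common trimmed mean per array. Median signals over all probe sets were 122.3 and 133.7 on the imatinib arrays and 152.4 and 141.5 on the vehicle arrays. Pearson's r between arrays, taken across features that are no replicates of one another, was 0.984 within imatinib, 0.981 within vehicle and 0.968 to 0.972 between the groups. For the Gapdh controls, 3' signal over 5' signal was 2.34 and 2.09 with imatinib and 2.91 and 2.76 with vehicle. For the actin controls it was 3.06 and 2.71 with imatinib and 3.99 and 3.58 with vehicle. Both ratios were thus lower on the imatinib arrays, and the part of this in the results was not tested. Macrophage identity genes summed to 161470 and 155930 with imatinib and to 127430 and 125470 with vehicle. Epithelial marker genes, which should be absent from sorted macrophages, summed to 7541 and 7433 with imatinib and to 36709 and 36902 with vehicle.

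**Figure D1:**
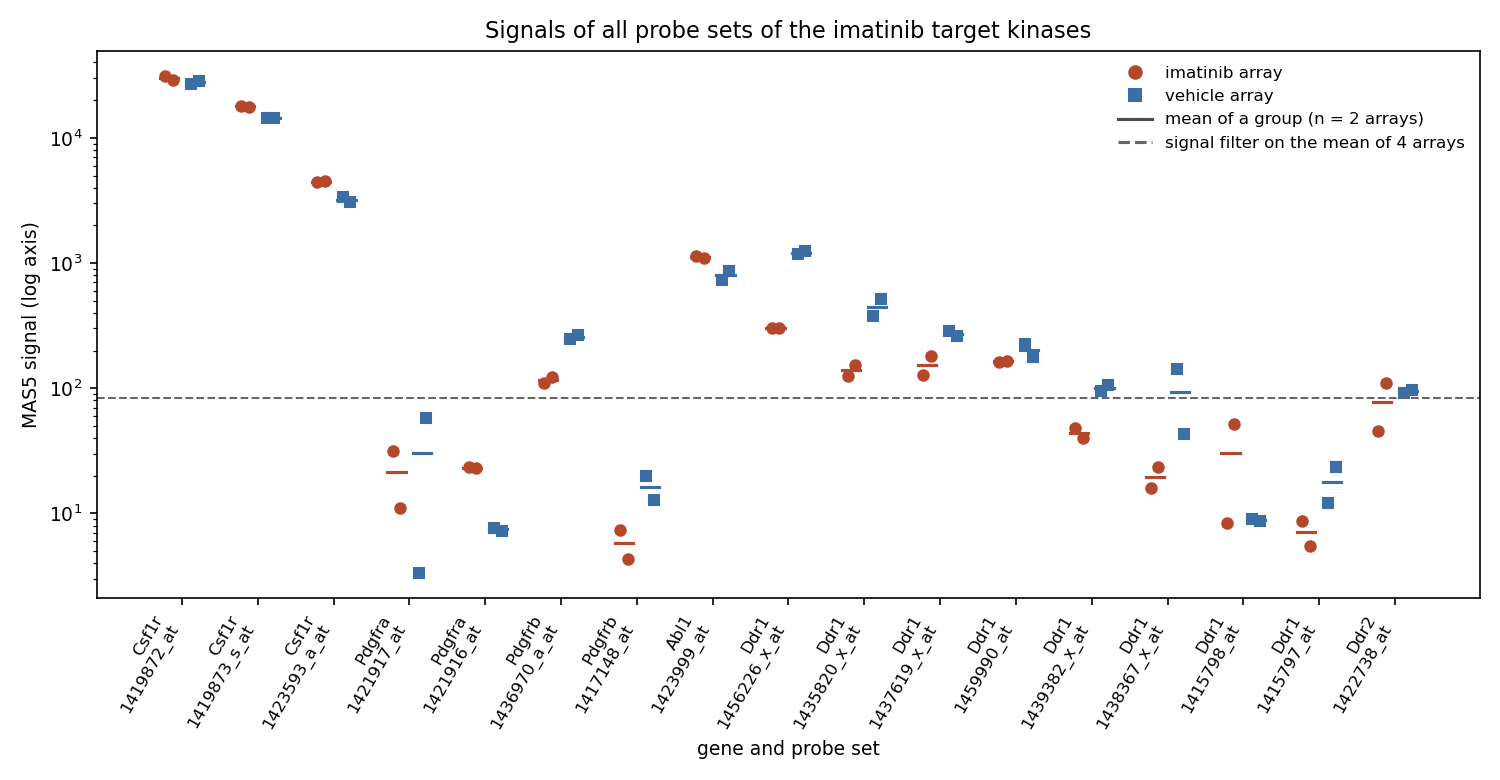
MAS5 signal (log axis) of each of the 17 probe sets on the 2 imatinib arrays (circles) and the 2 vehicle arrays (squares), with the group means as short lines and the signal filter of 82.9 as a dashed line. The 3 Csf1r probe sets lie far above the filter on every array, and both Pdgfra probe sets lie below it on every array.

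Among the 5 kinase genes that could be tested, Abl1 was higher with imatinib, Ddr1 and Pdgfrb were lower, and Csf1r and Ddr2 did not pass the test on the probe set that represents them. The Ddr1 call rests on probe sets that may also match other transcripts. A gene was represented by its brightest probe set and tested with limma on log2(signal + 32) if the mean over the 4 arrays reached 82.9, the 40th percentile of all probe sets. At a Benjamini-Hochberg adjusted p below 0.05, 6.74% of the 8156 tested genes were higher and 8.85% were lower (15.6% in either direction). Counted without a test, Csf1r and Abl1 were higher on both imatinib arrays than on either vehicle array and Pdgfrb and Ddr1 lower on both, as 26.1% and 30.1% of tested genes were (56.2% in either direction). The median log2 difference was -0.27 over the 5 kinase genes and -0.02 over all tested genes. At the level of single probe sets, 10 of the 17 passed the filter, of which 3 were higher and 4 lower, against 6.2% and 7.38% of 13576 tested probe sets (13.6% in either direction). The 3 higher ones belong to Csf1r and Abl1, and the 4 lower ones to Pdgfrb and Ddr1. Directions depend on the scale for Abl1 and for Csf1r, which did not pass as a gene. Setting the mean of 16 macrophage identity genes equal on all arrays lowers each log2 difference by 0.51. The differences of Abl1 and of all 3 Csf1r probe sets then became negative. On that scale 5755 of the 8156 genes were lower and 87 higher. Setting the array medians equal raises each difference by 0.16 and changed no direction of a tested kinase gene.

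**Figure D2:**
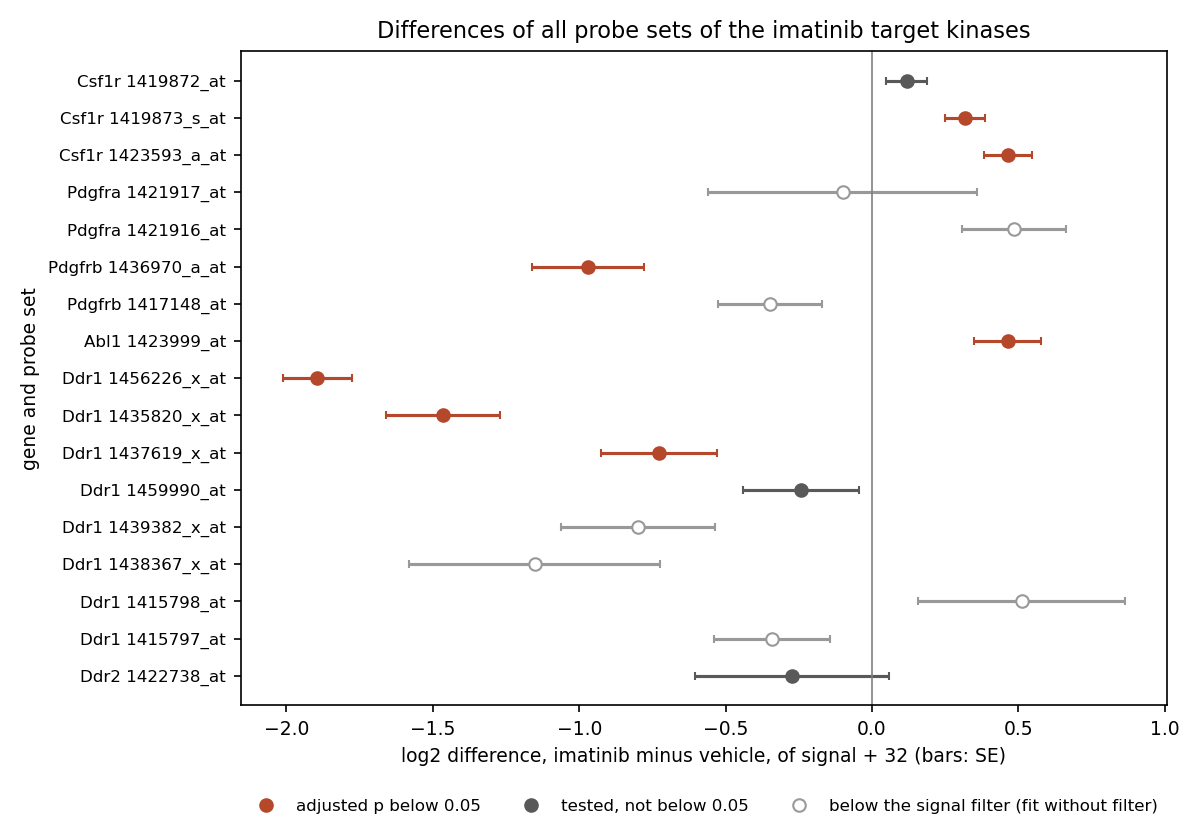
Log2 difference (imatinib minus vehicle, of signal + 32) of each of the 17 probe sets with its SE as a bar. Filled red-brown points passed the test, filled grey points did not, and open points lie below the signal filter and show a fit without the filter. The Csf1r and Abl1 points lie between 0.12 and 0.46, and the tested Ddr1 and Pdgfrb points between -1.89 and -0.24.

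Csf1r, the receptor by which macrophages sense their growth factor, was bright on every array, and its 3 probe sets did not give the same size of difference. The brightest, 1419872_at, had signals of 31382 and 29178 with imatinib and of 27103 and 28656 with vehicle. Both imatinib arrays lay above both vehicle arrays, but the nearest pair was close, and the log2 difference of 0.12 ± 0.07 (SE) did not pass (limma adjusted p = 0.33 over probe sets). Single arrays moved it, to 0.07 without imatinib array 1, 0.17 without imatinib array 2 and 0.08 without vehicle array 1, and it did not pass whichever array was left out. Probe set 1419873_s_at had 18073 and 17650 with imatinib and 14318 and 14338 with vehicle. Its groups were well apart relative to the spread within them, and it was higher by 0.32 ± 0.07 on the log2 scale (SE, 1.25-fold, limma adjusted p = 0.011). The dimmest, 1423593_a_at, had 4399 and 4490 with imatinib and 3349 and 3081 with vehicle, a log2 difference of 0.46 ± 0.08 (SE, 1.38-fold, limma adjusted p = 0.0038). The Csf1r difference was thus smaller on the brighter probe sets. Between the brightest and the dimmest it differed by -0.35 on the log2 scale, and this difference between probe sets was not tested. The suffixes of the IDs show that 1423593_a_at was designed against several transcripts of 1 gene and that 1419873_s_at may match transcripts of more than 1 gene.

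The signal of the brightest Csf1r probe set lay at the 99.84th percentile of all probe sets. Of the 123 probe sets with a mean signal of at least 20000, a limit chosen after the data were seen, 3.25% were higher and none lower (limma, adjusted over all tested probe sets), and their log2 differences ran from -0.18 to 0.45. Among the 353 probe sets with a mean of at least 10000, 19% were higher and 2.27% lower. The part of signal level in the Csf1r result was not tested. The call of 1419873_s_at was lost without imatinib array 1 (limma adjusted p = 0.056), without vehicle array 1 (0.094) and without vehicle array 2 (0.080), and its adjusted p ranged from 0.0090 to 0.17 over the alternative settings. The call of 1423593_a_at was kept whichever array was left out. When a gene was summarised as the mean of its probe sets, Csf1r was higher by 0.30 ± 0.06 (SE, limma adjusted p = 0.010), and its adjusted p over the alternative settings ran from 0.0015, on the macrophage scale where it was lower, to 0.74.

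Other macrophage identity genes were higher in most cases. Of 16 tested, 12 were higher and none lower, with a median log2 difference of 0.42, in a list that leaves out Csf1r. Without vehicle array 2, 7 were higher. Mertk, an engulfment receptor tyrosine kinase of macrophages that is no member of the Csf1r family, had 2113 and 1991 with imatinib and 881 and 917 with vehicle (log2 difference 1.16). Lyz2, the gene of macrophage lysozyme, differed by 0.86. Itgam (0.97) passed the filter through its imatinib signals, with a mean of 179.4, against 76.3 with vehicle. The brightest genes of the list, C1qb (mean signal 26439) and C1qa (25533), differed by -0.09 and 0.05, and their groups overlapped. The mean signal of Csf1r on its brightest probe set was 29080. The Csf1r difference on its brightest probe set was larger than that of 69.54% of all tested genes. On the scale with equal macrophage identity genes it was -0.39 on 1419872_at, -0.19 on 1419873_s_at and -0.05 on 1423593_a_at, and the first 2 of these passed as lower (limma adjusted p = 0.0015 and 0.036). The part of macrophage RNA content in the Csf1r result was not tested.

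Neither ligand of Csf1r passed the test. Csf1, the main growth factor of macrophages, had 218.0 and 260.7 with imatinib and 88.5 and 242.5 with vehicle. The groups overlapped through vehicle array 2, and the log2 difference of 0.57 ± 0.32 (SE) did not pass (limma adjusted p = 0.28). Without vehicle array 2 it was 1.17 and passed (limma adjusted p = 0.010), without vehicle array 1 it was -0.02, and as the mean of all Csf1 probe sets it was -0.03, so no direction can be read for Csf1. Il34, the second ligand, had 7.40 and 4.86 with imatinib and 2.52 and 53.4 with vehicle, all below the filter, and was not tested.

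Of 7 transcription factors that act on the Csf1r gene, 3 were higher and none lower, with a median log2 difference of 0.16. Cebpb rose to 13521 and 12307 with imatinib, against 5093 and 6163 with vehicle (log2 difference 1.20). Cebpa rose by 0.80 and Ets2 by 0.46, or -0.05 for Ets2 on the macrophage scale, and the Ets2 call was lost without imatinib array 1 (limma adjusted p = 0.12) and without vehicle array 1 (0.062), within a range of 0.0032 to 0.72 over the alternative settings. Spi1, Runx1, Irf8 and Fli1, named here to complete the list after their values were seen, had differences of 0.11 to 0.16 that did not pass and were -0.41 to -0.35 on the macrophage scale.

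Among receptors of the PDGF family, Pdgfra was not measurable and Pdgfrb was lower. The Pdgfra probe set 1421916_at had 23.4 and 23.1 with imatinib and 7.66 and 7.28 with vehicle. Probe set 1421917_at had 31.8 and 11.1 with imatinib and 3.33 and 57.4 with vehicle. All of these signals lie below the filter of 82.9, so that no level or difference of Pdgfra is given. In a fit of all probe sets without a filter, neither passed (limma adjusted p = 0.22 and 0.95).

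Pdgfrb fell to 110.0 and 122.5 with imatinib, against 248.8 and 267.9 with vehicle, on its brighter probe set 1436970_a_at. The arrays of the groups did not overlap, and the spread within each group was small beside the gap between them. The log2 difference was -0.97 ± 0.19 (SE, limma adjusted p = 0.0062), and 4.5% of tested genes had a smaller value, that is a larger fall. The second probe set, 1417148_at, had 7.38 and 4.33 with imatinib and 19.8 and 12.9 with vehicle, again lower but below the filter. The Pdgfrb call held whichever array was left out in the gene test, with adjusted p values of 0.00015 to 0.072 over the alternative settings, and it was lost when both probe sets were averaged (-0.66, limma adjusted p = 0.072). Tested among all probe sets, it was also lost without imatinib array 1 (limma adjusted p = 0.056, in a range of 0.00019 to 0.056).

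Some markers of the cells that normally express Pdgfrb were also lower. Few pericyte and smooth muscle markers could be tested. Of 14 fibroblast markers 12 were tested, of which 6 were lower and 1 higher (Mmp2, a gelatinase gene, 0.58, or 0.07 on the macrophage scale), with a median of -0.77. Their summed signal was 4741 and 5147 with imatinib and 8427 and 9043 with vehicle. Loxl1, an enzyme that crosslinks elastin and collagen, differed by -1.51, and Pcolce, which aids collagen maturation, by -1.35. Of 6 pericyte markers 3 were tested and 1 was lower, with summed signals of 1462 and 1468 with imatinib and of 1900 and 1998 with vehicle. This was Rgs5, a regulator of G-protein signalling (-0.36, limma adjusted p = 0.030, but 0.052 to 0.14 when single arrays were left out, in a range of 0.00011 to 0.76). Of 6 smooth muscle markers 3 were tested and 1 was lower (the actin gene Acta2, -0.82, and 2 were lower without imatinib array 1), with summed signals of 1232 and 1167 with imatinib and of 2020 and 2224 with vehicle. Among pericyte markers, Notch3 (-0.75, limma adjusted p = 0.056) and Cspg4 (-0.40, 0.25) did not pass, and the list median was -0.40. Among smooth muscle markers, Des (-1.12, limma adjusted p = 0.068) and Tagln (-0.34, 0.30) did not pass, and the median was -0.82. Des passed the filter through its vehicle signals. All 3 tested markers of either list were lower on both imatinib arrays than on either vehicle array, as 30.1% of all tested genes were. Of 6 endothelial markers 5 were tested and 0 called in either direction by limma, with 0 at an unadjusted p under 0.05. No marker of these lists was at a signal of 0, but this alone does not show expression. The smooth muscle marker Actg2, too dim to test, still had 1.34 on imatinib array 2. The part of these cells in the Pdgfrb result was not tested, and in pooled bulk RNA fewer cells of a type and less RNA per cell cannot be told apart.

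The PDGF ligands did not move as one. Pdgfc rose to 1321 and 1343 with imatinib, against 603 and 705 with vehicle. The log2 difference was 0.99 ± 0.11 (SE, 1.99-fold, limma adjusted p = 0.00015), and the groups were far apart. Pdgfa fell to 638 and 591 with imatinib, against 909 and 860 with vehicle (log2 difference -0.50, limma adjusted p = 0.011). The Pdgfa call was lost without imatinib array 2 (limma adjusted p = 0.055), without vehicle array 1 (0.061) and with equal array medians (0.10), the highest over the alternative settings, where the lowest was 6.6e-05. Pdgfb, with 1181 and 1250 with imatinib and 1101 and 1123 with vehicle, had a log2 difference of 0.12, or -0.39 on the macrophage scale, and did not pass. Pdgfd, with at most 22.4 on any array, lay below the filter. Pdgfc and Pdgfa signal mainly through Pdgfra and Pdgfb through both receptors.

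Ddr1, a collagen receptor of epithelium, fell the most of the kinase genes. Its brightest probe set 1456226_x_at had 300.9 and 300.2 with imatinib and 1170 and 1239 with vehicle. The 2 imatinib arrays were nearly equal and far below the vehicle arrays, with a log2 difference of -1.89 ± 0.12 (SE, limma adjusted p = 2.1e-06). Less than 1% of tested genes (0.981%) had a smaller value. Probe set 1435820_x_at had 126.1 and 154.2 with imatinib and 375.0 and 519.6 with vehicle (-1.47 ± 0.19, SE). Probe set 1437619_x_at had 128.6 and 179.6 with imatinib and 287.9 and 259.2 with vehicle (-0.73 ± 0.20, SE). In both, the groups did not overlap and limma over all probe sets called them lower. The call of 1437619_x_at was lost without imatinib array 1 (limma adjusted p = 0.21) and without either vehicle array (0.16 and 0.077), in a range of 0.00064 to 0.21.

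The 8 Ddr1 probe sets did not agree in size. The only tested one that was not of the _x_at kind, 1459990_at, had 163.2 and 163.9 with imatinib and 224.5 and 177.0 with vehicle. Its groups did not overlap, but vehicle array 2 lay close to the imatinib arrays, and the log2 difference of -0.24 ± 0.20 (SE) did not pass (limma adjusted p = 0.49). It was -0.10 without vehicle array 1 and -0.39 without vehicle array 2, and passed in neither case. The suffix _x_at marks probe sets with probes that can also match other transcripts. When probe sets ending in _s_at or _x_at were left out, Ddr1 was represented by 1459990_at and was not called (limma adjusted p = 0.47 in the gene test, where the alternative settings ran from 1.3e-09 to 0.47). The other 4 lay below the filter. Among these 1439382_x_at (48.5 and 39.95 with imatinib, 94.4 and 106.5 with vehicle), 1438367_x_at (15.8 and 23.4, against 142.6 and 43.0 with vehicle) and 1415797_at (8.75 and 5.48, against 12.1 and 23.7 with vehicle) were lower on both imatinib arrays. Probe set 1415798_at was the exception, with 8.33 and 52.1 with imatinib and 8.96 and 8.76 with vehicle. Over all 17 kinase probe sets, the imatinib arrays lay above both vehicle arrays in 5 and below both in 9, against 20.3% and 27.7% of all probe sets without a filter (48% in either direction). Among tested probe sets these shares were 26.5% and 28.1% (54.7% in either direction). Of the 9 lower kinase probe sets, 7 belong to Ddr1 and 2 to Pdgfrb. Of the 5 higher ones, 3 belong to Csf1r, 1 to Pdgfra and 1 to Abl1. Probe sets of the same gene are repeated measures of it, not independent members.

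Epithelial markers were lower together with Ddr1. All 14 epithelial markers were tested and lower, with a median log2 difference of -2.16, and none was at a signal of 0. Cldn4, with a mean of 66.2 with imatinib and 274.8 with vehicle, passed the filter through its vehicle signals. Krt19, a keratin of simple epithelium, differed by -2.89, the desmosomal gene Dsp by -2.65 and the adhesion gene Epcam by -2.42. The summed signals are given above. The 3 genes whose pattern over the 4 arrays was nearest to Ddr1, by Euclidean distance of centred log2 values among 8155 genes, were Cdh17, an intestinal cadherin (distance 0.068), Cdh1, the epithelial cadherin (0.070), and Klf5, a factor of intestinal crypts (0.092). The part of epithelial RNA in the Ddr1 result was not tested.

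Ddr2, the collagen receptor of connective tissue, was close to the filter. Its single probe set 1422738_at had 45.2 and 109.1 with imatinib and 91.5 and 96.8 with vehicle. The imatinib arrays lay on either side of the vehicle arrays, and the log2 difference of -0.27 ± 0.33 (SE) did not pass (limma adjusted p = 0.65). Imatinib array 1 alone set its sign, since the difference was 0.16 without that array. The collagen ligands of Ddr1 and Ddr2 were lower in part, with 5 of 8 tested genes lower, none higher and a median of -0.88. Col5a2 differed by -1.21, Col1a1 by -1.17, Col3a1 by -1.02, Col1a2 by -0.93 and Col4a1 by -0.67. The Col1a1 call was just inside the threshold (limma adjusted p = 0.04996) and was lost without imatinib array 1 (0.23) or either vehicle array (0.19 and 0.079), in a range of 0.00066 to 0.23. Its difference was -0.53 without imatinib array 1 and -1.81 without imatinib array 2. Col3a1 fell to 809 and 896 with imatinib, against 1744 and 1783 with vehicle. Without vehicle array 1, 3 of the 8 were lower, the Col4a1 call being lost as well (0.057, in a range of 7.9e-05 to 0.069). The list shares Col1a1, Col1a2, Col3a1 and Col6a1 with the fibroblast markers.

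Abl1, the cytoplasmic kinase for which imatinib was first developed as a drug, was higher on its single probe set 1423999_at. It had 1132 and 1089 with imatinib and 736 and 860 with vehicle. Both imatinib arrays lay above both vehicle arrays, and the vehicle arrays differed more from each other than the imatinib arrays. The log2 difference was 0.46 ± 0.11 (SE, 1.38-fold, limma adjusted p = 0.018) and larger than that of 94.87% of tested genes. The call was lost without imatinib array 1 (limma adjusted p = 0.088), without vehicle array 1 (0.11) and without the mean-variance trend (0.097), and on the macrophage scale the difference was -0.05 (0.74), the highest of a range that began at 0.0036. Among all probe sets it was also lost without imatinib array 2 (limma adjusted p = 0.087, in a range of 0.0062 to 0.75). Of 8 tested partners and substrates of Abl kinases, none was higher and 1 was lower, with a median of 0.09. This was Cttn, an actin-binding substrate, with 560 and 451 with imatinib and 1070 and 1901 with vehicle (-1.45). As the mean of its probe sets Cttn differed by -0.54 and did not pass (limma adjusted p = 0.083).

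**Figure D3:**
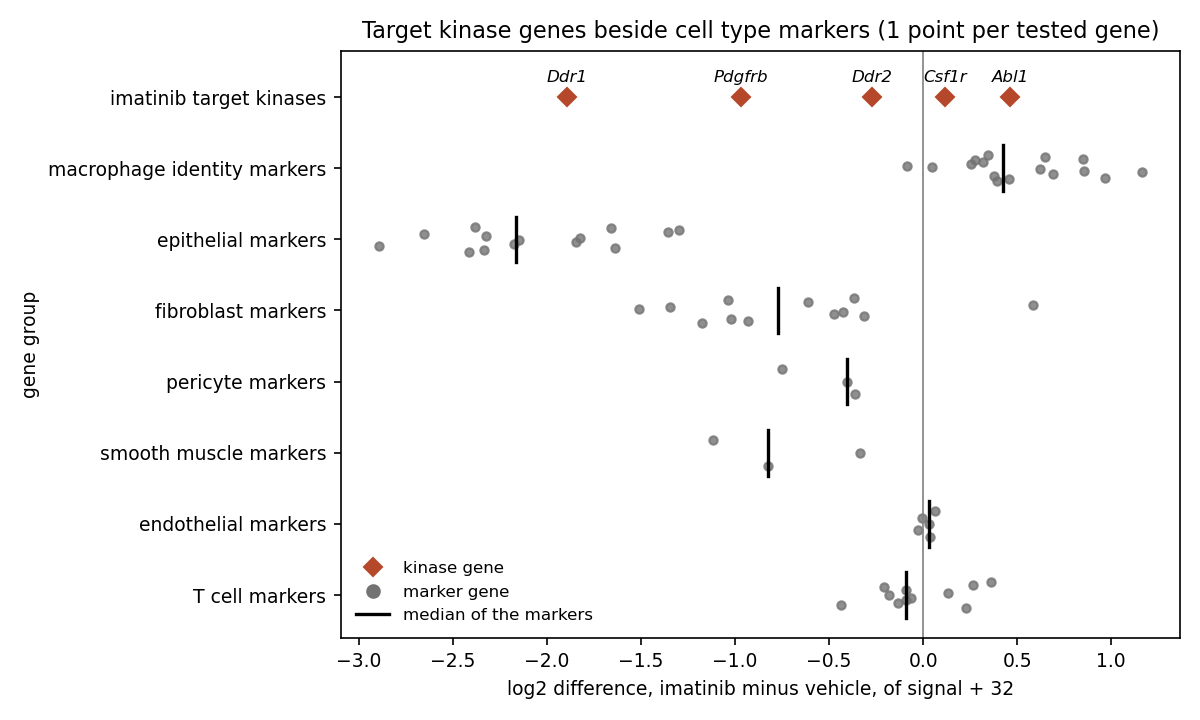
Log2 difference (imatinib minus vehicle, of signal + 32) of the 5 tested kinase genes (diamonds) above those of the tested markers of 7 cell types (circles, 1 per gene), with the median of each marker list as a vertical line. Ddr1 at -1.89 lies among the epithelial markers (median -2.16), and Csf1r at 0.12 is below the macrophage median of 0.42. Pdgfrb at -0.97 lies within the spread of both the fibroblast markers (median -0.77) and the smooth muscle markers (median -0.82). It lies below all tested pericyte markers (median -0.40).

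Few genes of the signal relay shared by the receptor kinases passed the test. Of 13 tested relay genes such as adaptors and lipid kinases, 1 was higher and none lower, with a median of 0.06. This was Tyrobp, an adaptor of myeloid receptors that also works with Csf1r, with 16754 and 15475 with imatinib and 11361 and 12453 with vehicle (0.44, or -0.08 on the macrophage scale). All 7 tested genes that dampen receptor signalling were higher on both imatinib arrays than on either vehicle array, as 26.1% of tested genes were. Of these 7, 1 passed the test as higher, and the list median was 0.25. This was Socs3 (0.28, or -0.23 on the macrophage scale, limma adjusted p = 0.038), and its call was lost without imatinib array 1 (0.11) and without vehicle array 1 (0.30), in a range of 0.030 to 0.30.

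Lck itself was not analysed here. Of 11 tested T cell markers, 0 were called in either direction by limma, with 0 at an unadjusted p under 0.05 and a median of -0.09, and their summed signal was 2853 and 3109 with imatinib and 3543 and 2813 with vehicle. Of 8 tested partners of Lck in T cell receptor signalling, 1 was higher, with a median of 0.14. This was Cd4, a co-receptor that binds Lck in T cells and is also present on gut macrophages, with 425.7 and 299.7 with imatinib and 56.2 and 41.3 with vehicle. It was higher by 2.28 ± 0.24 on the log2 scale (SE, limma adjusted p = 9.7e-05), and it passed the filter through its imatinib signals. Of the markers of other leukocytes, 2 of 4 tested B cell genes, 2 of 5 NK cell genes and 2 of 5 dendritic cell genes were higher and none lower, and of 2 mast cell genes none was called. These were Cd79b and Cd22, Klrd1 and Gzma, and Flt3 and Cd209a, named after their values were seen. The B cell and NK cell counts were 1 whichever array was left out, and the dendritic cell count was 1 without either imatinib array or vehicle array 1.

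Among 6 tested kinases related to the targets, 1 was higher, 1 was lower, and the median was -0.05. Flt3, a class III receptor like Csf1r and Kit that imatinib inhibits poorly, had 131.5 and 152.2 with imatinib and 30.8 and 66.2 with vehicle. It was higher by 1.14 ± 0.31 on the log2 scale (SE, limma adjusted p = 0.029), with vehicle signals below the filter. It is also one of the dendritic cell markers. The Flt3 call was lost without imatinib array 1 (limma adjusted p = 0.082), imatinib array 2 (0.12) or vehicle array 1 (0.13) and on the macrophage scale (0.095), in a range of 0.0040 to 0.13. Yes1, a Src family kinase of many cell types, had 73.2 and 101.2 with imatinib and 242.8 and 201.0 with vehicle (-1.10, limma adjusted p = 0.0084, but 0.074 without vehicle array 1, in a range of 0.00024 to 0.074). Src (-0.43), Blk (-0.09), Fyn (-0.01) and Fgr (0.19) did not pass, and the signs of Blk and Fyn turned positive with equal array medians and that of Fgr negative on the macrophage scale.

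Of 4 tested genes that handle imatinib, 1 was lower and none higher, with a median of -0.39. Abcb1a, 1 of the 2 mouse genes of the efflux pump P-glycoprotein, fell to 174.7 and 292.3 with imatinib, against 835.7 and 711.5 with vehicle. The groups were clearly apart, with a log2 difference of -1.63 ± 0.20 (SE, limma adjusted p = 0.00027). Abcb1b, the other P-glycoprotein gene, had 657.5 and 737.1 with imatinib and 410.1 and 599.6 with vehicle. Its difference of 0.46 ± 0.17 (SE), or -0.05 on the macrophage scale, did not pass (limma adjusted p = 0.089), but it did without vehicle array 2 (0.0092) and with equal array medians (0.010), in a range of 0.0092 to 0.81. Abcg2, a second efflux pump of epithelia, had 421.8 and 500.3 with imatinib and 574.1 and 724.2 with vehicle (-0.46, limma adjusted p = 0.059, but 0.044 without imatinib array 2 and 0.031 without vehicle array 1, in a range that began at 0.00059). Nqo2, an oxidoreductase that imatinib also binds, had 163.7 and 172.0 with imatinib and 232.1 and 202.9 with vehicle (-0.32) and did not pass. Abcb1a and Abcg2 are expressed by intestinal epithelium, whose markers were lower on the same arrays, and the part of epithelial RNA in these results was not tested.

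**Figure D4:**
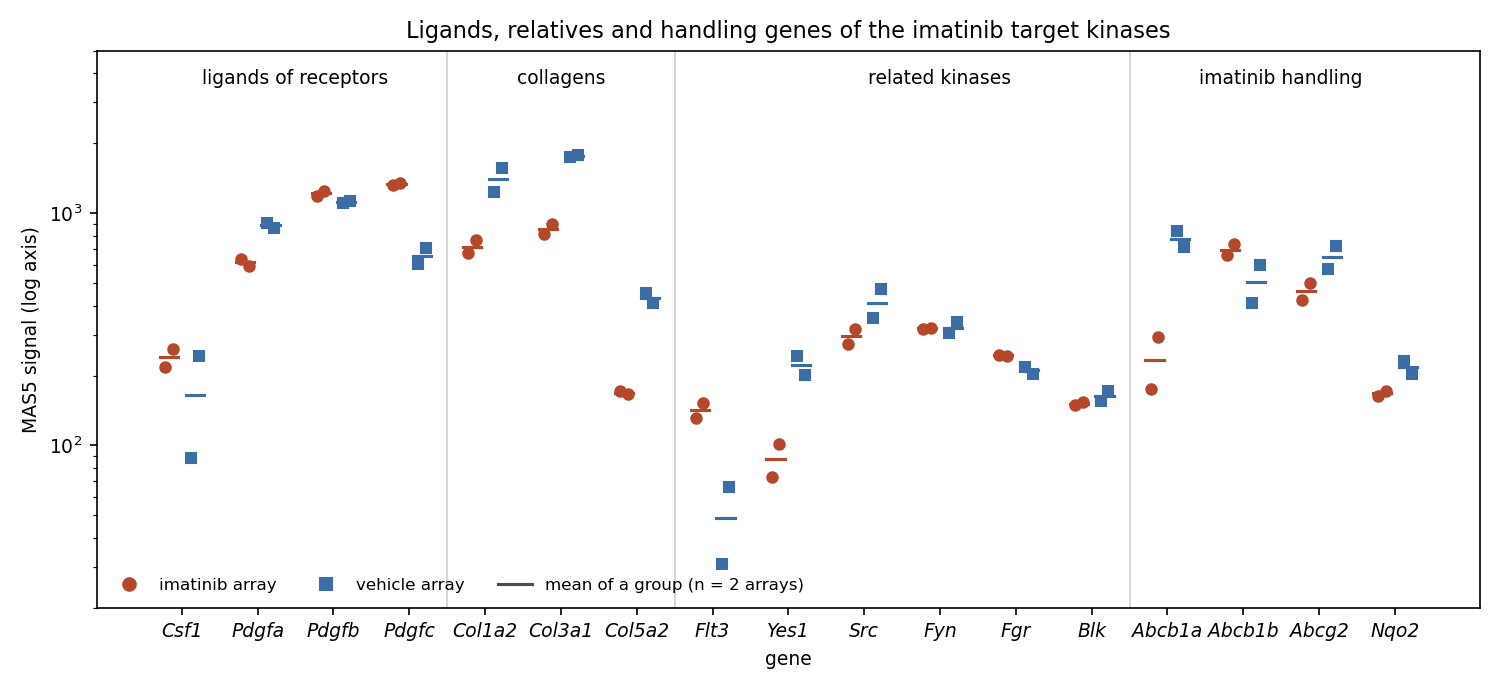
MAS5 signal (log axis) on the 2 imatinib arrays (circles) and the 2 vehicle arrays (squares), with group means as short lines, for receptor ligands, 3 collagens, 6 related kinases and 4 genes that handle imatinib. Of the genes that passed the test, Pdgfc and Flt3 are higher on both imatinib arrays than on either vehicle array. Pdgfa, the 3 collagens, Yes1 and Abcb1a passed and are lower on both. Some genes that did not pass are also separated, such as Pdgfb and Abcb1b (higher) and Abcg2 and Nqo2 (lower).

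Some of the targets are neighbours in the genome. By gene order in RefSeq's GRCm38.p6 table, which served for names and order only, Pdgfrb and Csf1r follow each other among protein-coding genes, as do Pdgfra and Kit. Pdgfrb differed by -0.97, whereas its neighbour Csf1r had differences of 0.12 to 0.46 on its 3 probe sets, or -0.39 to -0.05 on the macrophage scale. Kit fell to 620.8 and 689.9 with imatinib, against 1103 and 978.5 with vehicle (log2 difference -0.64). Of 5 tested markers of GIST and interstitial cells of Cajal, a list that includes Kit, none was higher. The 2 lower ones were Kit and Edn3, and Edn3 passed the filter of 82.9 through its vehicle signals (mean 181.8, against 82.4 with imatinib). Only 1 was lower without imatinib array 2 or either vehicle array.

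The patterns nearest to the other kinases over the 4 arrays were given by genes of several kinds. For Pdgfrb they were Prnp, the prion protein gene (distance 0.051), St14, an epithelial membrane protease (0.057), and Col3a1 (0.071). For Abl1 they were the kinase gene Mknk1 (0.010), the sodium pump subunit gene Atp1b3 (0.039) and the macrophage gene Cd68 (0.039), all of which were called higher. Like the Abl1 call, these calls were lost without vehicle array 1 (limma adjusted p = 0.16 for Mknk1, 0.11 for Atp1b3 and 0.054 for Cd68). Without imatinib array 1 those of Mknk1 (0.14) and Atp1b3 (0.078) were lost, and Mknk1 also lost its call without imatinib array 2 (0.078) and with averaged probe sets (0.11 on the log2 scale, adjusted p = 0.72). Over the alternative settings the highest adjusted p was 0.79 for Mknk1, 0.66 for Atp1b3 and 0.65 for Cd68. For Csf1r they were Grn, Sirt7 and Rbbp4, at distances of 0.0084 to 0.015, none of which was called, although Grn was higher with averaged probe sets (0.27, limma adjusted p = 0.048) and without _s_at and _x_at probe sets (0.37, 0.012). For Ddr2 they were C2cd2, Il17a and Shmt1, at 0.055 to 0.080, none of which was called. With 4 arrays such likeness is loose: 2578 of 8155 genes lay within 0.25 of Csf1r and 634 of Abl1, against 95 of Pdgfrb, 50 of Ddr2 and 31 of Ddr1.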

How the data were processed

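Tumour-associated macrophages were measured on 2 imatinib and 2 vehicle arrays. The values the authors deposited are linear signal intensities. The submitters' processing notes name MAS5 and Affymetrix Expression Console, and the sources used here give neither versions nor settings. Each array's mean was 500.3 once 2% of probe sets were trimmed at each end, so a change in many bright genes shifts all others, and low signals vary widely.

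Of 22690 probe sets, 64 controls were left out. The platform annotation gives 1 symbol for 20380 of the others, several for 691 and none for 1555. By Entrez ID 20351 matched the RefSeq table of GRCm38.p6, and 0 symbols differed. Groups came from the sample titles. Signals were taken as log2(signal + 32), which understates fold changes of dim genes. Genes (brightest probe set) and single probe sets were tested with limma 3.58.1 (two-sided, lmFit and eBayes, variance trended on mean signal) in R 4.3.3, with Benjamini-Hochberg adjustment over all features tested, and figures were drawn with matplotlib 3.10.9. The residuals had 2 degrees of freedom. The procedure was tested on simulated data. Errors are SE of log2 differences (imatinib minus vehicle).

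The members, the 10 pathway and 12 marker lists, the tests and the alternatives were chosen with earlier results of these data known. Named were the 8 kinases, up to 4 called members of each pathway list by size (or the 2 brightest where none was called) and all genes of lists of 5 or fewer. Up to 3 markers of a list by size and the 3 nearest patterns were also picked, but not all of these markers are given above. Src, Fyn, Fgr, Blk, Spi1, Runx1, Irf8, Fli1, Mmp2, Acta2, Edn3, Col1a1, Col4a1, Cd79b, Cd22, Klrd1, Gzma, Cd209a, C1qa, C1qb, Itgam, Cldn4, Notch3, Cspg4, Des and Tagln were named after their values were seen. Alternatives were pseudocounts of 1 and 100, a filter at the 60th percentile or none, quantiles or medians of the arrays made equal, equal macrophage identity genes (the macrophage scale), no variance trend, the replicate number as a block, each array left out, averaged probe sets per gene, and no _s_at or _x_at probe sets. Ranges of adjusted p are over these.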

Additional observations from a re-analysis of the deposited data

How the results depend on the processing

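For the 5 tested kinase genes, 69 of 78 values under the alternatives kept their direction and their side of the threshold. The 78 also include a crossed replicate block, which was added after seeing the data and is not among the alternatives listed above. The filter, trend and block settings leave a log2 difference as it is, so under these only the side of the threshold could change. The counts of kinase genes were 1 higher and 2 lower. They became 1 lower with the 60th percentile filter, which leaves 3 kinase genes, 0 higher and 3 lower with equal macrophage identity genes, where Csf1r joins the lower ones, 0 higher without the mean-variance trend, 2 higher and 1 lower with averaged probe sets, and 1 lower without _s_at and _x_at probe sets. The counts of probe sets, 3 higher and 4 lower, became 1 higher and 3 lower without a filter and 2 lower with the 60th percentile filter. They became 3 lower with quantile normalization, 0 higher and 7 lower with equal macrophage identity genes, and 0 higher and 3 lower without the trend. With single arrays left out, genes were 0 to 1 higher and 2 lower, and probe sets 1 to 2 higher and 2 to 4 lower.

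Csf1r was -0.39 with equal macrophage identity genes and 0.30 with averaged probe sets. Its probe sets 1419872_at, 1419873_s_at and 1423593_a_at were -0.39, -0.19 and -0.047 on the macrophage scale. Abl1 was -0.047 there (gene and probe set), 0.46 without the trend and 0.36 to 0.57 with single arrays left out. Pdgfrb was -0.66 with averaged probe sets, and Ddr1 was -0.24 without _s_at and _x_at probe sets. Ddr2, as gene and probe set, was 0.16 without imatinib replicate 1, within -0.71 to 0.16 over left-out arrays. Of the other named genes, the sign turned on the macrophage scale for Pdgfb (-0.39), Ets2 (-0.047), Tyrobp (-0.075), Socs3 (-0.23), Abcb1b (-0.048), Grn (-0.40), Sirt7 (-0.39), Rbbp4 (-0.39), Mknk1 (-0.041), Atp1b3 (-0.060), Cd68 (-0.055), Fgr (-0.32), Spi1 (-0.35), Runx1 (-0.37), Irf8 (-0.38), Fli1 (-0.41), Cd79b (-0.13) and Klrd1 (-0.049). It turned under quantile normalization for Grn (-0.00375), Blk (0.052) and Fyn (0.058), with equal medians for Blk (0.070) and Fyn (0.15), and with averaged probe sets for Csf1 (-0.026) and Fyn (0.076). Left-out arrays gave ranges that cross 0 for Csf1 (-0.021 to 1.17), Fyn (-0.083 to 0.067), C2cd2 (-0.65 to 0.16), Il17a (-0.62 to 0.20), Shmt1 (-0.61 to 0.18) and Fli1 (-0.0021 to 0.21). The cause of these changes was not tested.

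With the replicate number as a block, 1 kinase gene was higher and 2 were lower (Abl1 0.46, limma adjusted p = 0.029), and over all genes 421 were higher and 634 lower, against 550 and 722. The arrays share only a number: deviations of same-numbered arrays correlated at r = -0.13 over genes, and a crossed replicate block, added after seeing the data, gave 880 higher and 1095 lower genes. Equal array medians gave 1044 higher and 506 lower (67.35% of calls higher, against 43.24% as reported), the macrophage scale 87 and 5755 (1.489%), no trend 196 and 521 (27.34%). Over all genes 356 were higher without a filter, 294 without imatinib replicate 1 and 333 without vehicle replicate 1. Of 17 kinase probe sets, 7 were too dim to test.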
